A study of Homo sapiens with 18 samples.

Results

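The genes of insulin-like growth factor (IGF) binding and reception described here are 9 of 19974 protein-coding genes: the binding proteins IGFBP2, IGFBP3, IGFBP4, IGFBP5 and IGFBP6, the receptors IGF1R and INSR, and the receptor adaptors IRS1 and IRS2. They were chosen by name, and all ChIP-seq peaks with a centre in their hg38 gene bodies or within 50 kb were taken, 1123 of 1134194 peaks in 12 lists. The study mapped binding of FOXA1 and TLE3 by chromatin immunoprecipitation and sequencing in 3 luminal breast cancer cell lines, and asked how far they bind together. Each line and factor had 2 libraries, labelled as biological replicates. MDA-MB-453 is an established line without estrogen receptor, SKBR3 a line with amplified ERBB2, and T47D an estrogen receptor-positive line. The labels name no treatment. Each group is 1 line, so a difference between lines is a difference between these cultures. For TLE3, but not FOXA1, cells received a further crosslinker before formaldehyde, so factor and fixation cannot be told apart. Peak lists hold no expression values, so the labelled cell type was not checked against markers.

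IGF1 and IGF2 circulate and sit in tissue bound to IGF binding proteins, which carry them and limit or help their access to receptors. IGF1R and INSR are receptor tyrosine kinases. Once activated they phosphorylate IRS1 and IRS2, docking proteins that pass the signal to PI3 kinase and AKT. In breast epithelium the pathway is known as a growth and survival pathway tied to estrogen signalling, and IGF1R, IRS1 and IGFBP4 are known as estrogen-responsive genes in receptor-positive lines. FOXA1 is a pioneer forkhead factor that opens chromatin for nuclear receptors. TLE3 is a Groucho family corepressor that has no DNA-binding domain of its own and reaches DNA through partner factors.

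The lists held 107598 to 188029 FOXA1 peaks and 21149 to 94363 TLE3 peaks. The library labelled SKBR3 TLE3 replicate 2 stood apart: it had 94363 peaks against 21149 in replicate 1, and 21.7% of its peaks overlapped a SKBR3 FOXA1 site against 93.5% of those of replicate 1. SKBR3 TLE3 is therefore given by replicate and entered neither TLE3 comparison as reported. Peaks of the replicates of a line and factor were merged, and a region that both replicates contributed to is called a site. Read depth is unknown, so peak number is given per 100000 peaks of its list. The score that ranks peaks is the authors', and a peak in the upper 1% of a list is one of its highest-scored 1%.

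The promoters of 4 genes are shown. Those of IGF1R, IRS1 and IRS2 are the 3 that a T47D TLE3 site met, whereas IGFBP6 is the only member whose promoter held the forkhead letters TGTTTAC on either strand (capitals, read here as GTAAACA), yet it lay in no FOXA1 site. Each run is the 250 bases before the start site from RefSeq (GRCh38.p14), read along the gene; all 9 members matched the table.
IGF1R, chr15:98648289-98648538, plus strand: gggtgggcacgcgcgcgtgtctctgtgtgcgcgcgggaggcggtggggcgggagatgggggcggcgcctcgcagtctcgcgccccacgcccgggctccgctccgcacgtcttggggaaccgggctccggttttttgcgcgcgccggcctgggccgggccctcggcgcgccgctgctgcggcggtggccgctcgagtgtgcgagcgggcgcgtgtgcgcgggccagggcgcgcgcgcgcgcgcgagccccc
IRS1, chr2:226799821-226800070, minus strand: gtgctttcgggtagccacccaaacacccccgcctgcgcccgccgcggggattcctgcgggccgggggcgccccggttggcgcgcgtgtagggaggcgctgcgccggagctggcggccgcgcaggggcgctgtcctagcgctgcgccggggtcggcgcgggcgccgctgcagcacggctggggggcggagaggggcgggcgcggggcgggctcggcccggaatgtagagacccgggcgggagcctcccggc
IRS2, chr13:109786584-109786833, minus strand: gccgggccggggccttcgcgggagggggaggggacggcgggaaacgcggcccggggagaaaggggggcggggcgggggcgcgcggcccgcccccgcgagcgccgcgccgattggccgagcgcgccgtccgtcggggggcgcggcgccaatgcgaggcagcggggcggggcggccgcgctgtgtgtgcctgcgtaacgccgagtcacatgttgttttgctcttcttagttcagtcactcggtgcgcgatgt
IGFBP6, chr12:53097417-53097666, plus strand: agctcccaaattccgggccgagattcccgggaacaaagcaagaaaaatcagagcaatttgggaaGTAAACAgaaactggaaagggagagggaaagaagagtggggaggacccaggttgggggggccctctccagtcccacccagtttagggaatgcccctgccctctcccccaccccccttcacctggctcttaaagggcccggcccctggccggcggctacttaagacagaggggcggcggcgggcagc
The first 3 runs are 81.2%, 80.8% and 76.4% G or C, and the IGFBP6 run is 61.2%, beside a median of 62% over 22132 promoters. They hold 48, 39 and 42 CpG pairs, against 9 for IGFBP6 and a median of 16. Those are the highest counts among the 9 members, and 99.7%, 96.7% and 98.3% of promoters hold fewer. Over all 22132 promoters the median was 24 CpG pairs in the 3675 whose window from 250 bases before to 50 after the start met a T47D TLE3 site, and 14 in the others. For T47D FOXA1 sites the medians were 19 and 14, and for MDA-MB-453 TLE3 sites 18 and 16. The forkhead letters occur in 2.45% of these promoters.

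Promoter occupancy differed among the members. That window of 300 bases was crossed at IGF1R by peaks of all 6 FOXA1 libraries and of both T47D TLE3 libraries. At INSR it was crossed by all 6 FOXA1 libraries and, of the T47D TLE3 libraries, by replicate 2 only. At IGFBP5 the FOXA1 site was present in MDA-MB-453 and T47D and no SKBR3 FOXA1 peak crossed the window. At IRS1 both T47D TLE3 libraries had a peak there, and of the FOXA1 libraries only T47D replicate 1 did. At IRS2 both T47D FOXA1 libraries crossed it and no other FOXA1 library did; of the T47D TLE3 libraries only the peak of replicate 2 reached into the window, and it ended short of the start site itself. No library had a peak over the IGFBP2 window, and the windows of IGFBP3, IGFBP4 and IGFBP6 were crossed by SKBR3 TLE3 replicate 2 alone. A T47D TLE3 site thus met 3 of 9 member promoters, where 18.6% of 15812 genes had one, and a T47D FOXA1 site met 4 of 9, where 31.9% did. FOXA1 sites met 3 of 9 in MDA-MB-453, where 37.4% of genes had one, and 2 of 9 in SKBR3, where 17.2% did. No MDA-MB-453 TLE3 site met any member, where 2.28% of genes had one. In SKBR3 no TLE3 site of both replicates (3.79% of genes) and no peak of replicate 1 (3.5% of genes) did, whereas peaks of replicate 2 met 7 of 9, where 49.5% of genes had one.

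Every member had a FOXA1 site in each of the 3 lines. That is common: 87.7% of protein-coding genes had one in all 3 lines, and 95.1%, 89.8% and 95% in MDA-MB-453, SKBR3 and T47D. TLE3 sites were found at 7 of 9 members in MDA-MB-453, where 55.3% of genes had one, and at 8 of 9 in T47D, where 74.7% did. In SKBR3 a TLE3 peak of replicate 1 was found at 8 of 9 (57.3% of genes) of replicate 2 at 9 of 9 (96.5% of genes), and a site of both at 6 of 9 (35.3% of genes). TLE3 was found in MDA-MB-453, T47D and SKBR3 replicate 1, not always in the same region, at 6 of 9 members and 39.7% of genes. Merging the FOXA1 sites, the TLE3 sites of MDA-MB-453 and T47D and the peaks of SKBR3 TLE3 replicate 1 gave 176 distinct regions. SKBR3 TLE3 replicate 2 was left out of this merging, and 36 of its 98 peaks at members met no peak of another library. All 176 held a FOXA1 site of at least 1 line; of 198977 merged regions of the genome 1.40% held none. FOXA1 was found in 54 of the 176 (30.7%) in all 3 lines, beside 21.9% of those of the genome. TLE3 was found in 47 of the 176 regions, of which 21 had it in T47D alone, 3 in MDA-MB-453 alone and 4 in SKBR3 replicate 1 alone. A site of T47D or MDA-MB-453 needs both replicates, so such a region can hold a peak of 1 replicate of another line. Genome-wide, 23.2% of regions held TLE3 in any of these.

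The members' best peaks stood in the upper 1% of both lists of a group at 0 of 9 genes for MDA-MB-453 FOXA1 (6.38% of genes), 1 for SKBR3 FOXA1 (5.12%) and 1 for T47D FOXA1 (7.03%). In the upper 10% they stood at 5 of 9 (46.3% of genes), 7 of 9 (37.8%) and 8 of 9 (48%). For TLE3 no member had a best peak in the upper 1% in MDA-MB-453 (1.04% of genes), SKBR3 (0.11%) or T47D (1.9%). In the upper 10% there were 0 of 9 in MDA-MB-453 (10.4% of genes), INSR in SKBR3 (7.23%), and IGFBP4 and IGF1R in T47D (15.4%). The best INSR peaks of the SKBR3 TLE3 replicates were not the same region. That of replicate 1 was chr19:7145471-7146166 (upper 7.89%), and that of replicate 2 was chr19:7340670-7341837 (upper 1.87%).

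**Figure D1:**
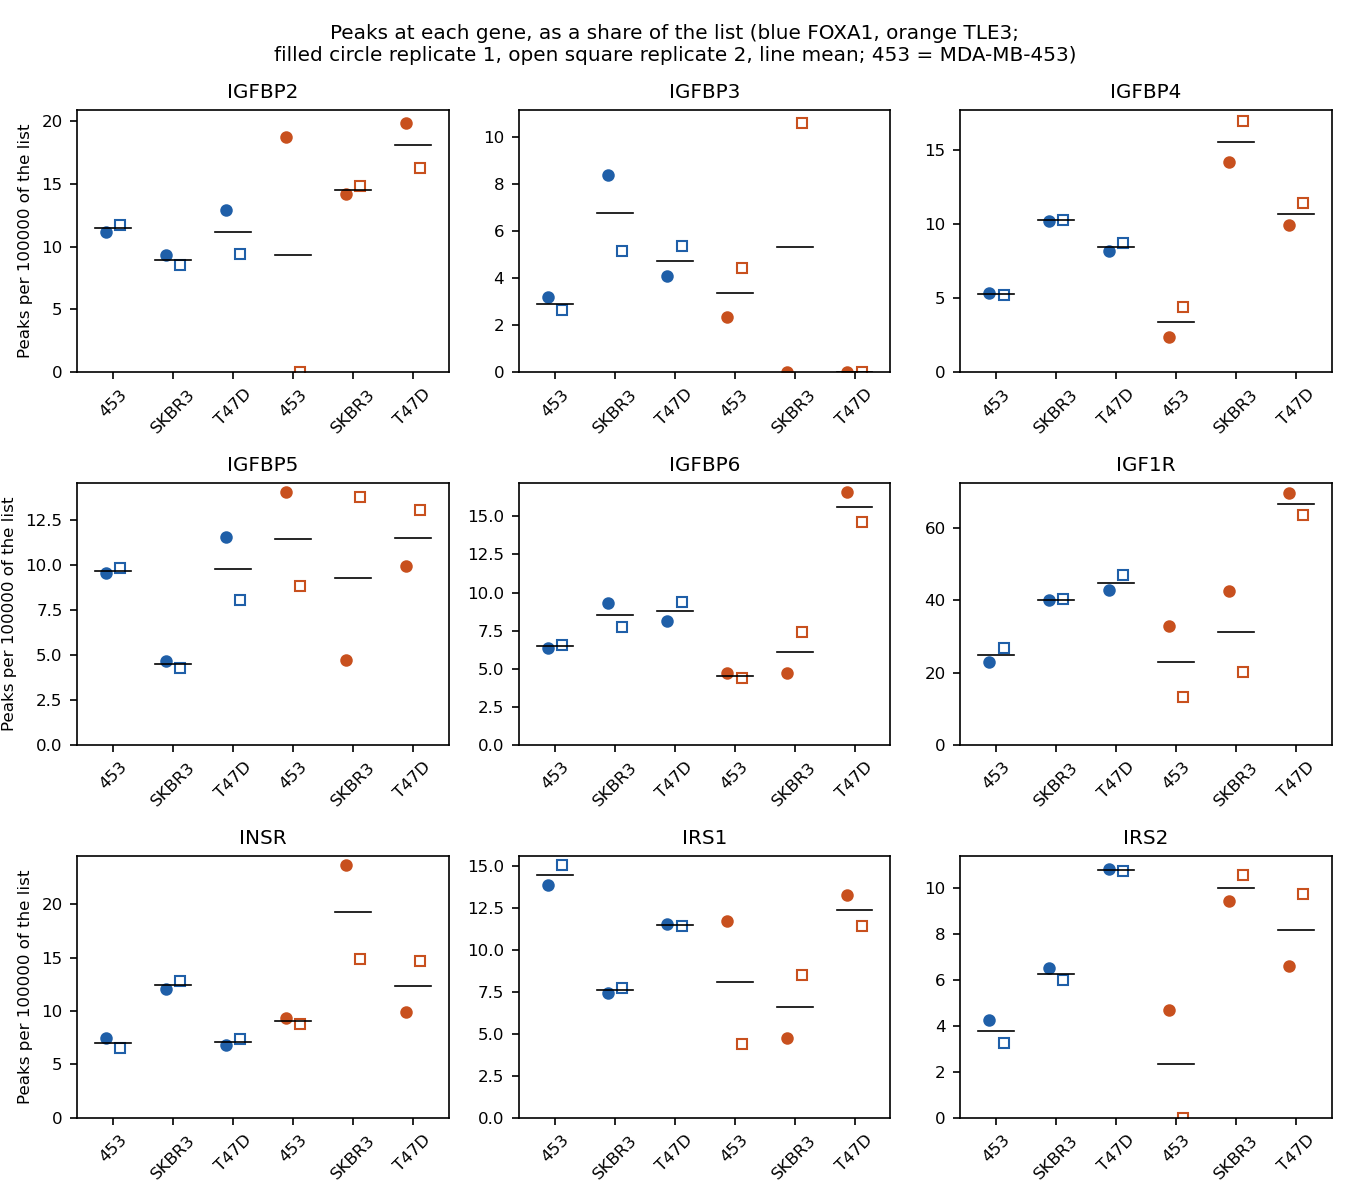
Peaks at each gene per 100000 peaks of the list (y axis, linear from 0) for the 6 groups of line and factor (x axis), with replicate 1 as a filled circle, replicate 2 as an open square and the mean as a line. The 4 T47D libraries of IGF1R lie between 42.8 and 69.6, above every MDA-MB-453 library, and the FOXA1 values of IRS2 in T47D (10.9 and 10.7) lie above those of the other lines.

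Among the binding proteins, IGFBP2 and IGFBP5 are neighbours on chromosome 2 (chr2:216632828-216664436, plus strand, and chr2:216672105-216695549, minus strand). Both proteins bind IGFs in serum and tissue, and IGFBP5 also binds the extracellular matrix. Their windows overlap and share 13 merged regions, so they do not count as separate evidence. IGFBP2 had 21 and 18 FOXA1 peaks in MDA-MB-453, 10 and 10 in SKBR3, and 19 and 14 in T47D. As a share of the list that was 11.2 and 11.8, 9.29 and 8.56, and 12.9 and 9.40 peaks per 100000, with T47D overlapping MDA-MB-453. IGFBP5 had 9.57 and 9.80 FOXA1 peaks per 100000 in MDA-MB-453, 11.5 and 8.05 in T47D, and 4.65 and 4.28 in SKBR3. Both SKBR3 libraries lay below the other 4 at IGFBP5.

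TLE3 was uneven between replicates at IGFBP2. MDA-MB-453 replicate 1 had 8 peaks and replicate 2 had 0, whereas T47D had 6 and 10 and SKBR3 had 3 and 14. The best of the 8 MDA-MB-453 peaks stood in the upper 65.9% of its list. The best-ranked TLE3 site at IGFBP2 lay 35.7 kb upstream (chr2:216596226-216598105), outside any protein-coding gene body, with FOXA1 in all 3 lines and TLE3 in T47D and SKBR3 replicate 1; the best FOXA1 site lay 12.5 kb upstream (chr2:216619902-216620827). At IGFBP5 the TLE3 site that ranked best lay 44.0 kb upstream (chr2:216739082-216740109). It held FOXA1 in all 3 lines and TLE3 in MDA-MB-453 and SKBR3 replicate 1, and was also the best-ranked FOXA1 site of IGFBP5.

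IGFBP3 (chr7:45912245-45921272, minus strand), the main IGF carrier in serum, had the fewest merged regions, 8. FOXA1 gave 6 and 4 peaks in MDA-MB-453, 9 and 6 in SKBR3 and 6 and 8 in T47D. TLE3 gave 1 and 1 peaks in MDA-MB-453, 0 and 10 in SKBR3, and 0 in both T47D libraries. The 0 of 30170 and 0 of 61391 T47D peaks each allow up to 3 peaks, for counting error only. Its best FOXA1 and its only TLE3 site were the same region, 1.76 kb upstream of the start (chr7:45922173-45923887). There FOXA1 stood in the upper 9.17% and 9.21% of the T47D lists without a T47D TLE3 peak, and TLE3 was called in both MDA-MB-453 libraries, in the upper 51.7% and 58.4%. The window also holds IGFBP1, so a site cannot be assigned to either gene.

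IGFBP4 (chr17:40443450-40457725, plus strand), which binds IGFs and is cut by the protease PAPPA, had 5.32 and 5.23 FOXA1 peaks per 100000 in MDA-MB-453, 10.2 and 10.3 in SKBR3 and 8.15 and 8.72 in T47D. The 3 lines did not overlap. TLE3 gave 1 and 1 peaks in MDA-MB-453, 3 and 16 in SKBR3 and 3 and 7 in T47D. The strongest site lay inside the gene, 5.21 kb from the start (chr17:40447816-40449505). In T47D its FOXA1 peaks stood in the upper 0.823% and 0.552% of their lists and its TLE3 peaks in the upper 7.56% and 4.46%, whereas FOXA1 there stood in the upper 21.3% and 28.4% in MDA-MB-453 and 12.5% and 10.9% in SKBR3. IGFBP4 was the 1 member of 9 with a FOXA1 peak in the upper 1% of both T47D lists, where 7.03% of genes had one. Its best-ranked TLE3 site lay 27.8 kb upstream (chr17:40415354-40415990), in the body of TOP2A, and held FOXA1 and TLE3 in all 3 lines. TLE3 ranked highest there in SKBR3 replicate 1 (upper 2.19%), against the upper 68.9% and 27.2% in T47D.

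IGFBP6 (chr12:53097667-53102340, plus strand), which prefers IGF2 over IGF1, had 6.38 and 6.53 FOXA1 peaks per 100000 in MDA-MB-453, 9.29 and 7.71 in SKBR3 and 8.15 and 9.40 in T47D, with SKBR3 and T47D overlapping. TLE3 gave 2 and 1 peaks in MDA-MB-453, 1 and 7 in SKBR3 and 5 and 9 in T47D. Per 100000 peaks that was 4.68 and 4.40, 4.73 and 7.42, and 16.6 and 14.7, so both T47D libraries lay above the other 4. No merged region lay in the gene body: 11 of its 13 lay upstream and 2 downstream. Merged regions leave out SKBR3 TLE3 replicate 2, whose best peak here did lie in the body (chr12:53097663-53100295, upper 1.98%). One upstream region, 36.1 kb from the start in the body of TNS2 (chr12:53060991-53062099), ranked best for both factors and held both in all 3 lines. Its FOXA1 peaks stood in the upper 1.17% to 3.18% of all 6 lists, and its TLE3 peaks in the upper 15.5% and 31.3% in MDA-MB-453, 18.4% and 12.3% in SKBR3 and 11.6% and 5.696% in T47D.

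IGF1R (chr15:98648539-98964530, plus strand), the receptor for IGF1 and IGF2, had the most sites in its window of 416 kb. FOXA1 gave 43 and 41 peaks in MDA-MB-453, 43 and 47 in SKBR3 and 63 and 70 in T47D. Per 100000 peaks that was 22.9 and 26.8, 40.0 and 40.3, and 42.8 and 46.98, with the MDA-MB-453 libraries lowest. TLE3 gave 14 and 3 peaks in MDA-MB-453, 9 and 19 in SKBR3 and 21 and 39 in T47D, or 32.8 and 13.2, 42.6 and 20.1, and 69.6 and 63.5 per 100000. Both T47D libraries lay above all others. Measured per length, T47D had 13.0 FOXA1 sites and 4.33 TLE3 sites per 100 kb at IGF1R, beside medians of 4.06 and 0.968 over all genes; 98.1% and 94.6% of genes had a lower density. In MDA-MB-453 the densities were 8.89 and 0.481, and 48.3% of genes had a lower TLE3 density.

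Of 65 merged regions at IGF1R, 59 lay in the gene body, 5 upstream and 1 downstream. FOXA1 was found in all 3 lines in 22 of them and in T47D alone in 17. TLE3 was found in 18, each with T47D TLE3: 10 had it in T47D alone, 6 in T47D and SKBR3 replicate 1, and 2 in all 3 lines. An MDA-MB-453 site needs a peak of both replicates, and replicate 2 had 3 TLE3 peaks here against 14 in replicate 1. A region counted for T47D alone can thus hold a TLE3 peak of MDA-MB-453 replicate 1, as chr15:98751591-98752540 does (upper 52.8%). The 2 shared regions lay 206 kb and 212 kb into the gene (chr15:98852015-98856142 and chr15:98859948-98861502), with the best-ranked FOXA1 site of IGF1R between them at 209 kb (chr15:98857276-98858293). The best-ranked TLE3 site of IGF1R is the one at 212 kb. A region 36.6 kb upstream (chr15:98611526-98612434), chosen for display after its values were seen, ranked high in T47D alone: FOXA1 stood in the upper 2.36% and 2.92% and TLE3 in the upper 5.38% and 2.68%, against FOXA1 in the upper 64.6% and 65.8% in MDA-MB-453 and 33.1% and 40.1% in SKBR3.

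**Figure D2:**
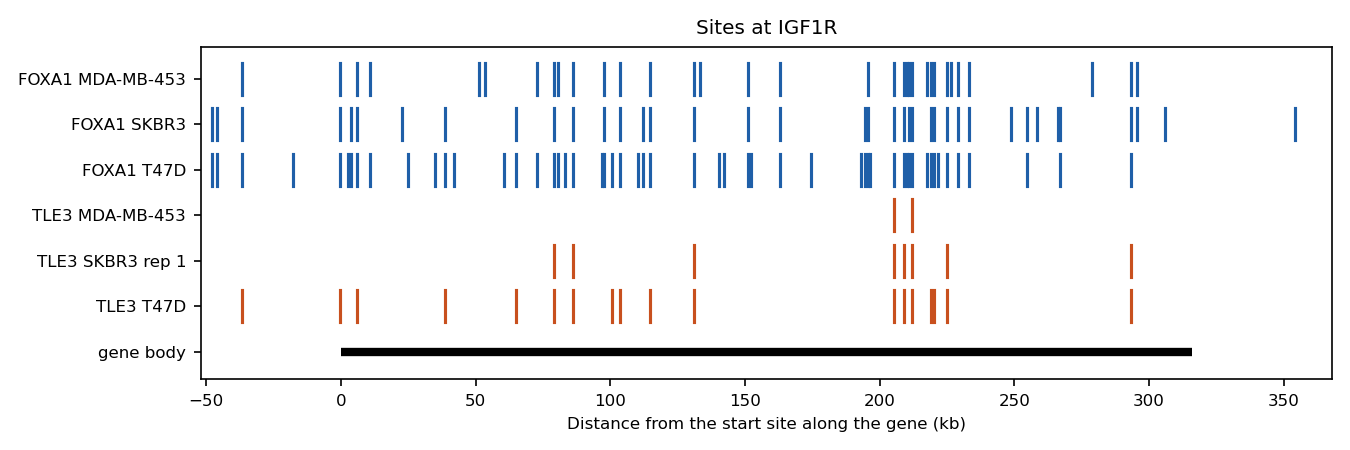
Sites at IGF1R by distance from its start site along the gene (x axis, kb) for each line and factor (rows), with the gene body as a black bar. T47D TLE3 has 18 sites spread over the body and the upstream flank, whereas MDA-MB-453 TLE3 has 2. Sites of these lines need a peak of both replicates, and the MDA-MB-453 TLE3 replicates had 14 and 3 peaks here.

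INSR (chr19:7112265-7294414, minus strand), the insulin receptor, which also forms hybrids with IGF1R, had 7.45 and 6.53 FOXA1 peaks per 100000 in MDA-MB-453, 12.1 and 12.8 in SKBR3 and 6.79 and 7.38 in T47D. Both SKBR3 libraries lay above the other 4. TLE3 gave 4 and 2 peaks in MDA-MB-453, 5 and 14 in SKBR3 and 3 and 9 in T47D. SKBR3 held the strongest sites. One lay 149 kb into the gene (chr19:7144640-7146443) with SKBR3 FOXA1 in the upper 0.517% and 0.298%, against the upper 15.9% and 22.2% in MDA-MB-453 and 11.01% and 8.51% in T47D. It was the best-ranked FOXA1 site of INSR. The best-ranked TLE3 site lay 1.95 kb upstream of the start (chr19:7295817-7296901), where SKBR3 FOXA1 stood in the upper 0.549% and 0.620%; TLE3 was in T47D and both SKBR3 libraries, and in neither MDA-MB-453 library. INSR was the 1 member of 9 with a FOXA1 peak in the upper 1% of both SKBR3 lists, where 5.12% of genes had one.

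IRS1 (chr2:226731312-226799820, minus strand), the main IGF1R adaptor in many breast cancer cells, had 26 and 23 FOXA1 peaks in MDA-MB-453, 8 and 9 in SKBR3 and 17 and 17 in T47D. Per 100000 peaks that was 13.8 and 15.0, 7.44 and 7.71, and 11.5 and 11.4, and the 3 lines did not overlap. TLE3 gave 5 and 1 peaks in MDA-MB-453, 1 and 8 in SKBR3 and 4 and 7 in T47D. A region 3.36 kb inside the gene (chr2:226795640-226797274) ranked best for both factors and held both in all 3 lines, with FOXA1 in the upper 1.62% to 5.58% of the 6 lists. Of the 20 merged regions at IRS1, 9 had FOXA1 in MDA-MB-453 alone, 6 in MDA-MB-453 and T47D, and 3 in all lines. The 4 T47D TLE3 sites lay between 1.28 kb upstream and 5.20 kb inside.

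IRS2 (chr13:109752695-109786583, minus strand), the second adaptor, had 8 and 5 FOXA1 peaks in MDA-MB-453, 7 and 7 in SKBR3 and 16 and 16 in T47D, or 4.25 and 3.27, 6.51 and 5.99, and 10.9 and 10.7 per 100000. T47D was highest and MDA-MB-453 lowest, without overlap. TLE3 gave 2 and 0 peaks in MDA-MB-453, 2 and 10 in SKBR3 and 2 and 6 in T47D. Of 14 merged regions at IRS2, 7 had FOXA1 in T47D alone, and 2 in all 3 lines. These 2 lay downstream, 42.6 kb and 81.4 kb from the start site along the gene (chr13:109743626-109744264, the best-ranked TLE3 site, and chr13:109704762-109705652, the best-ranked FOXA1 site). At the promoter region (chr13:109786518-109787273) T47D FOXA1 stood in the upper 52.4% and 90.3% of its lists and TLE3 in the upper 66.3% and 36.1%, so these were not strong peaks.

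**Figure D3:**
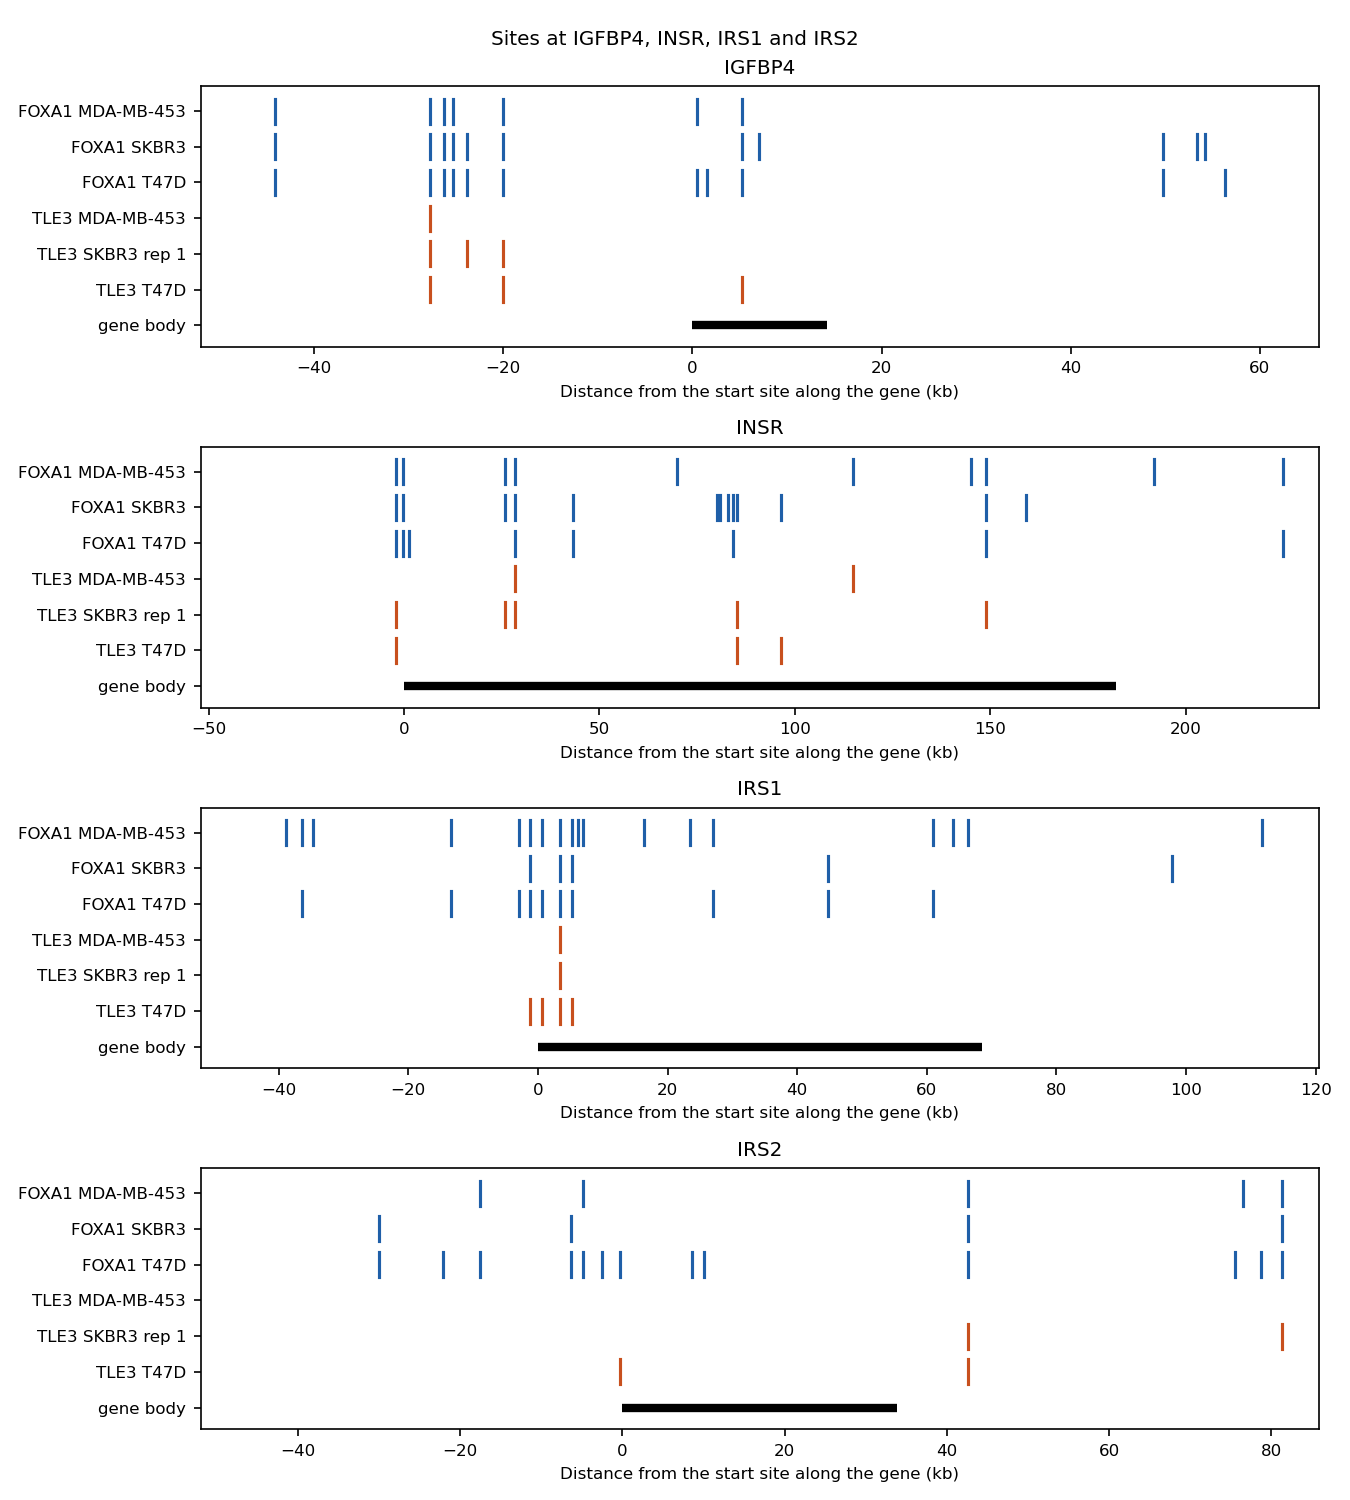
Sites at IGFBP4, INSR, IRS1 and IRS2 by distance from the start site along each gene (x axis, kb) for each line and factor (rows), with gene bodies as black bars. By number, among these genes, MDA-MB-453 FOXA1 sites are most frequent at IRS1 (18), SKBR3 sites at INSR (13) and T47D sites at IRS2 (13). The INSR window is the longest of them, 282 kb. Per 100 kb SKBR3 had 4.61 FOXA1 sites at INSR and 9.63 at IGFBP4.

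FOXA1 peak number was compared between lines with limma over 17383 genes, on log2 of peaks per 100000 plus 1, two-sided, with Benjamini-Hochberg adjustment and 2 libraries per line; differences below are on that log2 scale, with standard errors. Between T47D and MDA-MB-453, 3 of 9 members passed, all higher in T47D, where 30% of all genes passed and 16.5% were higher. IGF1R was higher by 0.83 ± 0.10 (adjusted p = 6.01e-05), IRS2 by 1.32 ± 0.18 (adjusted p = 0.000175) and IGFBP4 by 0.59 ± 0.15 (adjusted p = 0.0117). The IGF1R and IRS2 calls held under all 17 alternatives; that of IGFBP4 was lost in 4 of 16, without MDA-MB-453 FOXA1 replicate 1 (adjusted p = 0.0553), without its replicate 2 (0.0697), without T47D FOXA1 replicate 2 (0.0624) and with unscaled peak numbers (0.114). The other 6 members lay between -0.31 for IRS1 and 0.55 for IGFBP3. The median of the members was 0.39 beside 0.04 over all genes tested.

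Between T47D and SKBR3, IGFBP5 was higher in T47D by 0.96 ± 0.18 (adjusted p = 0.000821), IRS2 by 0.70 ± 0.18 (adjusted p = 0.00588) and IRS1 by 0.54 ± 0.13 (adjusted p = 0.00541), and INSR was lower by a log2 difference of -0.74 ± 0.15 (adjusted p = 0.00163, limma). That is 4 of 9, where 44.5% of all genes passed, 21.6% higher and 22.9% lower. IGF1R did not pass (0.16 ± 0.10, adjusted p = 0.205). The IGFBP5 call depends on the window and on weak peaks: it was 0.24 within 100 kb (adjusted p = 0.135) and -0.16 in the upper 50% of each list (adjusted p = 0.515). INSR (-0.35, adjusted p = 0.119) and IRS1 (0.34, adjusted p = 0.115) also did not pass in the upper 50%, INSR did not with unscaled numbers (-0.38, adjusted p = 0.173), and IRS2 did not with equally long lists (0.45, adjusted p = 0.0714).

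Between MDA-MB-453 and SKBR3, 7 of 9 passed, where 47.5% of all genes did, 21.8% higher and 25.7% lower in MDA-MB-453. Higher in MDA-MB-453 were IGFBP5 (0.97 ± 0.18) and IRS1 (0.85 ± 0.13). Lower were IGFBP3 (-0.96 ± 0.24), IGFBP4 (-0.84 ± 0.15), INSR (-0.75 ± 0.15), IGF1R (-0.67 ± 0.10) and IRS2 (-0.61 ± 0.18), with limma's adjusted p of the 7 between 0.000101 and 0.0117. With unscaled peak numbers all 5 lower calls were lost, with differences between -0.50 and -0.10; the MDA-MB-453 lists are the longer ones. The IGFBP3 and IRS2 calls were each lost without MDA-MB-453 FOXA1 replicate 2 (adjusted p = 0.0642 and 0.1004) and without SKBR3 FOXA1 replicate 1 (0.0767 and 0.0669), INSR turned to 0.36 in the upper 50% of the lists (adjusted p = 0.106) and IGFBP5 to -0.01 within 100 kb (adjusted p = 0.936). IGFBP3 and IRS1 (adjusted p = 0.0666 and 0.0544) were also lost with equally long lists, IGFBP3 within 10 kb (0.207), and IRS2 in the upper 50% (0.972). The 3 comparisons share libraries and are not independent.

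**Figure D4:**
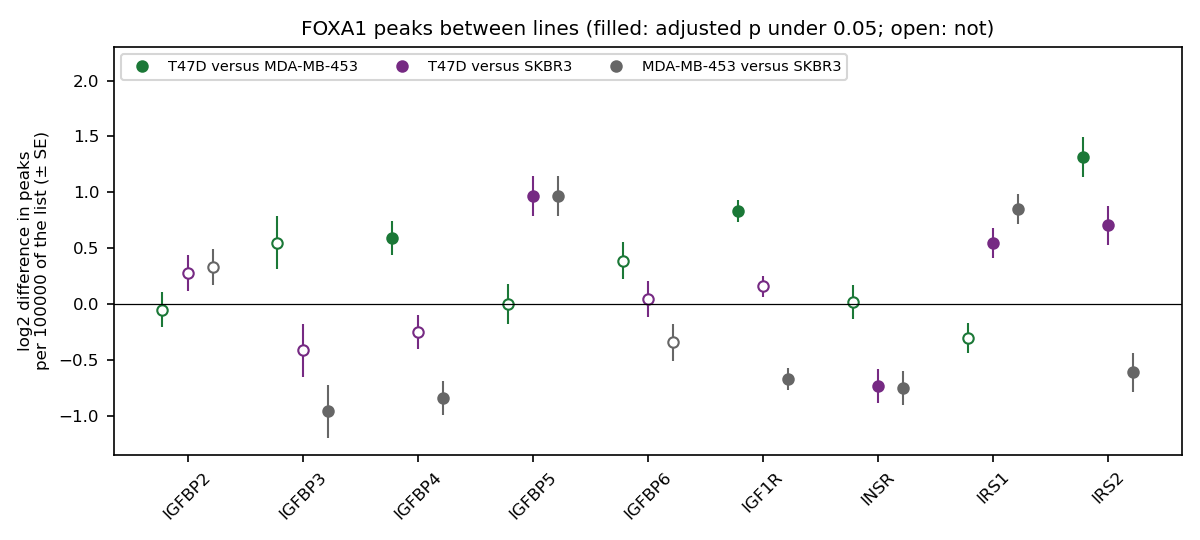
Log2 difference in FOXA1 peaks per 100000 of the list, plus 1, between each pair of lines (y axis, with the standard error) for each gene (x axis), filled where the adjusted p passed 0.05. IRS2 (1.32) and IGF1R (0.83) show the highest differences of T47D over MDA-MB-453, and INSR lies below 0 in both comparisons with SKBR3 as the second line.

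TLE3 peak number was compared between T47D and MDA-MB-453 alone, over 7536 genes. No gene passed (0% of genes) with limma as run, although 2654 had an unadjusted p under 0.05, and with the spread modelled without a trend 132 passed. None of the 7 members tested therefore passed; IGFBP3 and IRS2 had fewer than 3 peaks on average and were not tested. The differences were 1.62 ± 0.41 for IGF1R (adjusted p = 0.0659), 1.58 ± 0.36 for IGFBP6 (adjusted p = 0.0612), 1.45 ± 0.51 for IGFBP4, 2.10 ± 1.27 for IGFBP2, 0.68 ± 0.48 for IRS1, 0.38 ± 0.34 for INSR and 0.03 ± 0.35 for IGFBP5. MDA-MB-453 had 2 and 1 TLE3 peaks at IGFBP6, and 1 and 1 at IGFBP4. Both genes reached the mean of 3 peaks only through T47D, so their differences are not read. The median of all 7, which is the IGFBP4 value, was 1.45, beside 0.42 over all genes tested, and is not read either. In the alternatives IGF1R passed in 9 of 16 and IGFBP6 in 6 of 11, with adjusted p from 3.11e-07 to 0.387 and from 0.00621 to 0.387. The alternatives include fits with 1 library left out, in which a line has 1 library and the spread is that of the other line. Without MDA-MB-453 TLE3 replicate 1, IGF1R stood at 2.25. That line was then held by replicate 2 alone, with 3 peaks at IGF1R.

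TLE3 was also set against FOXA1 over the 8 libraries of T47D and MDA-MB-453, with line as a term. None of the 9 members passed with limma, where 11.5% of 15543 genes did, 7.56% higher and 3.93% lower in TLE3; an unadjusted p under 0.05 was found for 4724 genes. IGFBP3 and IRS2 reached the minimum of 3 peaks only through FOXA1, so their differences are not read. The other 7 lay between -0.41 ± 0.79 for IGFBP2 and 0.52 ± 0.20 for INSR (adjusted p = 0.114).

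The overlap of the 2 factors was counted from each side. All 10 of 10 TLE3 sites of MDA-MB-453 met FOXA1 there (exact 95% binomial interval 69.2% to 100%), where 99.3% did genome-wide. In T47D 36 of 38 did (94.7%, interval 82.3% to 99.4%), where 87% did. In SKBR3 12 of 12 sites of both replicates did (interval 73.5% to 100%), where 91.2% did. Of its single libraries, 25 of 25 peaks of TLE3 replicate 1 did (interval 86.3% to 100%), where 93.5% did, and 36 of 98 of replicate 2 (36.7%, interval 27.2% to 47.1%), where 21.7% did. With equally long lists of 21149 peaks the overlap was lower: 3 of 7 TLE3 sites in MDA-MB-453 (42.9%) and 16 of 24 in T47D (66.7%), beside 71.1% and 58.5% genome-wide under the same lists. In SKBR3 3 of 4 sites of both replicates then met FOXA1 (75%), beside 46.0% genome-wide. Every FOXA1 list lost most of its peaks in this cut, so fewer FOXA1 sites were left to meet. In the whole lists, both T47D exceptions lay in INSR, 96.5 kb and 85.3 kb into the gene (chr19:7197237-7198534 and chr19:7208959-7209339). Each lay in a region with a SKBR3 FOXA1 site, and the first also held a peak of T47D FOXA1 replicate 1 alone.

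Seen from FOXA1, T47D TLE3 sites overlapped 36 of 132 FOXA1 sites (27.3%, interval 19.9% to 35.7%), beside 21.9% genome-wide. In MDA-MB-453 it was 10 of 111 (9.01%, interval 4.41% to 15.9%), beside 15.8%. In SKBR3 it was 12 of 99 with TLE3 of both replicates (12.1%, interval 6.42% to 20.2%), beside 7.21%, 23 of 99 with replicate 1 (23.2%, interval 15.3% to 32.8%), beside 20.9%, and 34 of 99 with replicate 2 (34.3%, interval 25.1% to 44.6%), beside 22.4%. With replicate 2 the interval lay above the genome-wide share from both sides. These intervals cover counting error only, and neighbouring sites are not independent. IGF1R held 18 of the 36 in T47D and 2 of the 10 in MDA-MB-453. At IGFBP2 5 of 14 FOXA1 sites carried TLE3 in T47D and 0 of 18 in MDA-MB-453, where TLE3 replicate 1 had 8 peaks and replicate 2 had 0.

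**Figure D5:**
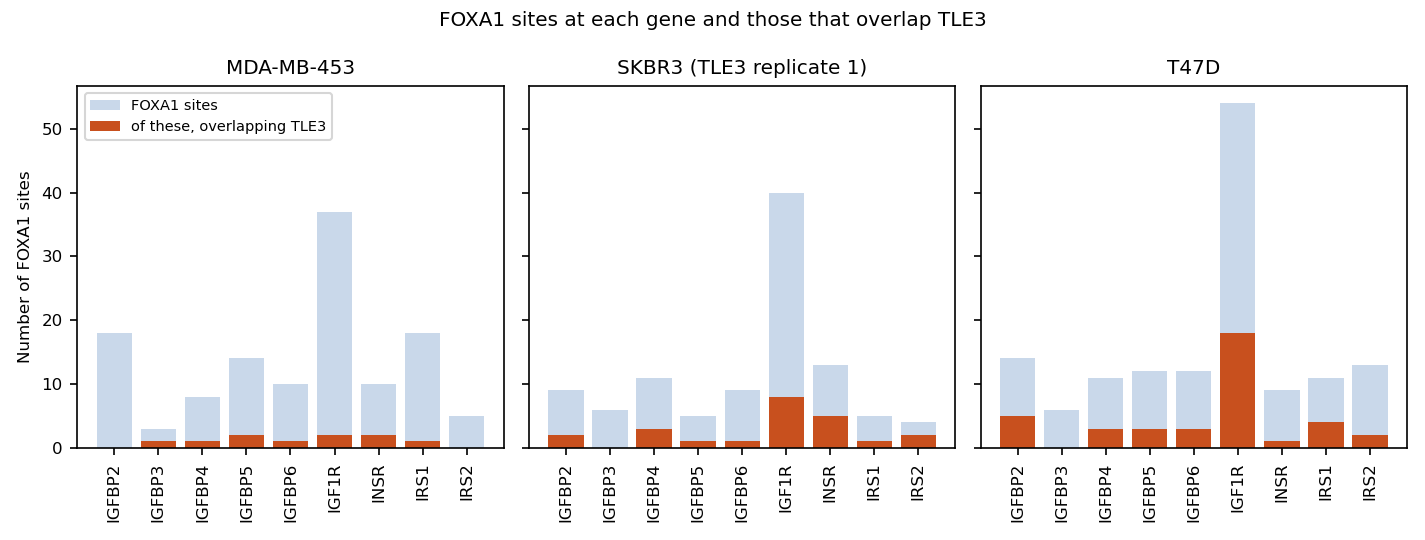
Number of FOXA1 sites at each gene (light bars) and how many of them overlap TLE3 in the same line (dark bars), in MDA-MB-453, SKBR3 with TLE3 replicate 1, and T47D. IGF1R has 18 of 54 overlapping sites in T47D and 2 of 37 in MDA-MB-453, where the TLE3 replicates had 14 and 3 peaks and a site needs both.

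TLE3 was called in T47D, MDA-MB-453 and SKBR3 replicate 1 together in 5 of the 176 regions, beside 3.2% of all regions of the genome. They are the regions named above at IGFBP4, IGFBP6 and IRS1 and the 2 in IGF1R. All 5 held FOXA1 in the 3 lines, and 4 of them also held a peak of SKBR3 TLE3 replicate 2, the exception being the region 212 kb into IGF1R.

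Of 28 other genes of the pathway all had a FOXA1 site in each line, where 87.7% of all genes did. TLE3 sites were found at 22 in MDA-MB-453 (55.3% of genes) and 24 in T47D (74.7%). A TLE3 peak of SKBR3 replicate 1 was found at 22 (57.3%). By the mean percentile of the best TLE3 peak over 5 libraries, the ligand IGF1 came first, then the docking protein GAB1 and the transcription factor FOXO3. The best peak of IGF1 stood in the upper 0.0597% and 0.0375% of the T47D lists, 0.740% and 1.73% of those of MDA-MB-453 and 12.9% of SKBR3 replicate 1. GAB1 ranked above it in both MDA-MB-453 lists (0.527% and 1.61%) and in SKBR3 replicate 1 (10.6%), where INS ranked highest (0.444%). In TLE3 against FOXA1, 5 of 23 tested passed, all higher in TLE3. Of all genes tested, 7.56% were higher and 3.93% lower. The 5 were STC2, a secreted inhibitor of the IGF-releasing protease PAPPA (0.98), IGF1 (0.91), the kinase AKT2 (0.87), the adaptor SHC1 (0.66) and FOXO3 (0.59). In TLE3 between T47D and MDA-MB-453, none of 16 tested passed, where 0% of all genes did.

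For FOXA1 in T47D against MDA-MB-453, STC2 (0.93) and the insulin receptor phosphatase PTPN1 (0.52) were higher and 7 were lower among 26 tested. Of all genes tested, 16.5% were higher and 13.5% lower. Lower were the protease PAPPA2 (-1.40), the PI3 kinase subunit PIK3R3 (-1.001), SOS1 (-0.89), the ligand IGF2 (-0.81), the adaptor GRB2 (-0.73), GAB1 (-0.50) and FOXO3 (-0.42). Against SKBR3, 5 were higher in T47D, PIK3R1 (1.70), IGFALS (1.23), GRB14 (0.69), STC2 (0.69) and SHC1 (0.44), and 13 were lower: IGFBP7 (-2.20), IGF2 (-1.53), INS (-1.347), PIK3R3 (-1.33), IGF2R (-1.20), PAPPA (-0.88), INSRR (-0.88), PAPPA2 (-0.76), FOXO3 (-0.70), FOXO1 (-0.65), SOS1 (-0.59), GAB1 (-0.41) and GRB10 (-0.37). In that comparison 21.6% of all genes tested were higher and 22.9% lower in T47D. The windows of IGF2 and INS overlap and share peaks, so they are not separate evidence. In MDA-MB-453 against SKBR3, 5 were higher, PIK3R1 (1.35), IGFALS (1.05), GRB14 (0.77), PAPPA2 (0.64) and GRB2 (0.41), and 9 were lower: IGFBP7 (-1.75), IGF2R (-1.46), INS (-1.34), IGFBP1 (-0.82), IGF2 (-0.72), PTPN1 (-0.59), PAPPA (-0.53), GRB10 (-0.51) and FOXO1 (-0.46). Here 21.8% of all genes tested were higher and 25.7% lower in MDA-MB-453. The window of IGFBP1 overlaps that of IGFBP3. Some calls rest on few peaks. In T47D IGF2, INS and INSRR had 1.35, 1.69 and 1.68 FOXA1 peaks per 100000 on average, and 2, 2 and 1 sites. In SKBR3 IGFALS had 1.32 per 100000 and 1 site, and in MDA-MB-453 INS had 1.72 per 100000 and 2 sites. These genes reached the mean of 3 peaks only through the other lines. Their differences against T47D or, for IGFALS, SKBR3 are not read, nor is that of INS between MDA-MB-453 and SKBR3. The T47D differences of IGFBP7 also rest on few peaks, 2.03 per 100000 and 2 sites in T47D.

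The gene whose log2 peak numbers were most like those of a member over 11 libraries, among 10035 genes, was SLC66A3 for IGF1R (Pearson r = 0.975), LGALS3BP for INSR (0.979), NAA50 for IRS1 (0.978), TRIM37 for IRS2 (0.969), EHMT2 for IGFBP2 (0.986), GLTP for IGFBP4 (0.976), DESI2 for IGFBP5 (0.963) and LAMTOR1 for IGFBP6 (0.951). These points share libraries and list lengths, and the values are a description. IGFBP2 and IRS2 had 0 peaks in MDA-MB-453 TLE3 replicate 2, and how far that library carries their correlations was not tested.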

How the data were processed

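FOXA1 and TLE3 were mapped in 3 lines with 2 libraries each; 6 further samples are inputs and were not used here. The authors deposited 1 list of 5 columns per library, with a score per peak of a quantity that no label or header names; its lowest value lay between 2.00 and 2.04, and it was used to rank peaks within a list. MACS2, SAMtools, BWA 0.7.5a and Trim Galore stand in the submitters' processing notes with the build hg38 and no roles; peak caller settings: not given in the sources used here. Peaks off chromosomes 1 to 22 and X (15) were left out. Depth cannot be read from these lists. Gene positions and promoters came from RefSeq (GRCh38.p14). Exon annotation, peak sequences and proteins were not used here.

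Libraries were grouped by line and factor from their titles. Peaks with a centre in a gene body or within 50 kb were counted, and sites merged at an overlap of 1 bp. Genes with a mean of at least 3 peaks were tested with limma 3.58.1 in R 4.3.3 (trend, threshold 0.05, pseudocount 1). The labels call replicates biological but do not say how they were grown, so p-values measure the spread between these libraries. The members and lists were chosen with earlier results of these data known. Named were all 9 members, their best-ranked sites by mean score percentile, regions with TLE3 in all lines, and pathway genes that passed a test or ranked highest. Alternatives were other pseudocounts, filters, windows, scalings and list lengths, a replicate block, a fit without trend, all 12 libraries together and each library left out; an interaction of factor and line was added after seeing the data. On simulated data with 200 genes changed 4-fold, limma recovered 53.5%, 54%, 48%, 36.5% and 41% in the 5 comparisons in the order of the report, and 2003 simulated overlaps agreed in number with bedtools 2.31.1.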

Additional observations from a re-analysis of the deposited data

Results flagged for a closer look

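The difference of TLE3 and FOXA1 between T47D and MDA-MB-453 was tested as an interaction with limma over 15543 genes, of which 7.6% passed. At IGFBP6 TLE3 peaks per 100000 were above FOXA1 in T47D (16.6 and 14.7 against 8.15 and 9.40). They were below it in MDA-MB-453 (4.68 and 4.40 against 6.38 and 6.53), where they rest on only 2 and 1 TLE3 peaks. The fitted difference was 1.19 ± 0.28 (adjusted p = 0.0496). This call was lost in 7 of 11 alternatives, among them without each FOXA1 library in turn and without T47D TLE3 replicate 1, with adjusted p from 0.0161 to 0.215. IGFBP3 gave a fitted value of -2.63, which is not read as a difference: it had 1 and 1 TLE3 peaks in MDA-MB-453 and 0 in both T47D libraries, and reached the minimum of 3 peaks only through FOXA1. IGFBP4 showed the same opposite directions in every library, with TLE3 above FOXA1 in T47D and below it in MDA-MB-453. There it had 1 and 1 TLE3 peaks, and its difference of 0.87 ± 0.41 did not pass (adjusted p = 0.241).

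SKBR3 TLE3 replicate 2, which was kept out of the TLE3 comparisons as reported and entered 1 alternative with all 12 libraries, had peaks found in no other library. There were 7 at IGFBP3, 7 at INSR, 6 at IGFBP4, 6 at IRS2, 5 at IGFBP2, 4 at IGFBP5, 3 at IGF1R, 2 at IRS1 and 0 at IGFBP6. Over all members, 36 of its 98 peaks (36.7%) were found there alone, a smaller share than the 50.4% of its peaks genome-wide. Its list is the longest of the TLE3 lists, and these peaks are a description with no test.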

How the results depend on the processing

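Of the members' values under alternatives, 708 kept their direction and their side of the threshold or, if not called, stayed so; 32 lost a call, 45 gained one and 10 turned. The cause of the changes was not tested except where the alternative itself shows it. In the upper 50% of each list INSR turned in T47D against MDA-MB-453 (-0.71) and in MDA-MB-453 against SKBR3 (0.36), and IGFBP5 in T47D against SKBR3 (-0.16). Within 100 kb IGFBP5 turned in MDA-MB-453 against SKBR3 (-0.014), and IGFBP2 in TLE3 against FOXA1 (0.70). Without MDA-MB-453 TLE3 replicate 2, IGFBP2 in TLE3 against FOXA1 turned to 0.66, and with 1 library left out it lay between -1.06 and 0.66. Unscaled peak numbers make TLE3 lower by construction, since its lists are shorter: IGFBP5 was -1.64, IGFBP6 -1.57, IGF1R -1.83 and INSR -1.30, and 14757 genes passed in place of 1786.

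Counts of genes that passed FOXA1 comparisons were 5218, 7741 and 8251 as reported and 2594, 4053 and 4483 within 10 kb; unscaled, the first was 2611, and with 1 library left out it was 2270 to 4940, with 2270 in the absence of MDA-MB-453 FOXA1 replicate 2 and 2875 in that of its replicate 1. For TLE3 in T47D against MDA-MB-453 the count of 0 became 923 with a pseudocount of 2, 716 with no filter, 506 with a mean of 6 peaks, 807 with equally long lists, 77 in the upper 50%, 365 within 10 kb, 2087 within 100 kb, 132 without trend and 3174 with all 12 libraries, and 121 to 2959 with 1 library left out. For TLE3 against FOXA1 it became 2825 with no filter, 389 with equally long lists, 1063 in the upper 50%, 1080 within 10 kb and 866 without trend, and 289 to 2797 with 1 library left out. For the interaction of factor and line the 1182 became 0 to 5094 with 1 library left out; the lone library of a group was then assumed to vary like the others.

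Replicate numbers did not pair the libraries, with correlations of same-numbered deviations between -0.097 and 0.071. With a replicate block, 1434 genes passed in TLE3 between lines, 1047 in TLE3 against FOXA1 and 248 in the interaction, beside 5542, 8054 and 8553 for FOXA1.

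The share of member TLE3 sites overlapping FOXA1 fell with equally long lists to 42.9% in MDA-MB-453 and 66.7% in T47D, where every list holds its 21149 highest-scored peaks (71.1% and 58.5% genome-wide). With these lists it was 75% in SKBR3, 3 of 4 sites (46.0% genome-wide). In T47D it was 100% in the upper 50%, and 79.5% (without TLE3 replicate 1) to 97.4% with 1 library left out. In SKBR3 it was 100% for sites of both replicates, 46.8% for peaks of either, and 36.7% without TLE3 replicate 1.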
